A study of Homo sapiens with 6 samples.

Results

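The strands described here are the 9 mature miRNAs of the miR-15/16 family and its hairpins that were chosen by name, namely hsa-miR-15a-5p, hsa-miR-15a-3p, hsa-miR-15b-5p, hsa-miR-15b-3p, hsa-miR-16-5p, hsa-miR-16-1-3p, hsa-miR-16-2-3p, hsa-miR-195-5p and hsa-miR-497-5p (the prefix hsa, for human, is left out of most names). They are 9 of the 2588 mature miRNAs in the count tables, and 7 of them had enough counts to be tested. The libraries came from A549, a line of human lung adenocarcinoma, in which doxycycline switched on an shRNA against METTL1, the methyltransferase that makes N7-methylguanosine (m7G) in tRNA. Both groups carried the knockdown and had been given doxycycline (200 ng/ml) for 5 days. One group was total RNA (the input, n = 3) and the other was RNA precipitated with an anti-m7G antibody after decapping and heat denaturation (m7G-RIP, n = 3). The shRNA was delivered by a lentiviral vector under a tetracycline-controlled promoter, and which of the study's METTL1 shRNAs these libraries carry is not given in the labels. No cells with normal METTL1 and no IgG precipitate were analysed here. The comparison therefore asks which strands the antibody recovered from knockdown cells and does not measure an effect of METTL1. The groups were deposited apart, and any difference in how they were prepared or sequenced cannot be told apart from recovery by the antibody.

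The miR-15/16 family is known for restraining the cell cycle. Its guide strands share a seed, the bases that pair with target mRNAs, and repress cyclins, cyclin-dependent kinases and the survival factor BCL2. miR-15a and miR-16-1 lie together in the DLEU2 region that is often lost in chronic lymphocytic leukemia, while miR-15b and miR-16-2 lie in SMC4, the gene of a condensin subunit. Each hairpin gives a 5p and a 3p strand, and in this family the 5p strand is usually taken as the guide, the strand loaded into RISC.

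The sequences of the 5 guide strands are shown first because they carry 1 seed and differ mainly in the bases after it, and capitals mark the seed (bases 2 to 8 from the 5′ end). All mature and hairpin sequences are from RefSeq (GRCh38.p14), where all 9 names were found.
miR-16-5p: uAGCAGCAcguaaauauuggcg
miR-15a-5p: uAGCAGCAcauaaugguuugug
miR-15b-5p: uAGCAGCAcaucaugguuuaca
miR-195-5p: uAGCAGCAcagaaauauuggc
miR-497-5p: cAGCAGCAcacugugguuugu

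The seed AGCAGCA was found in 7 of 2370 mature miRNAs of the RefSeq table (0.295%), the 5 guides above with miR-424-5p and miR-6838-5p. miR-16-5p and miR-15b-5p shared their first 9 bases and matched at 14 of 22 positions, with the substitutions A10G, C12A, U14A, G15U, G16A, U19G, A20G and A22G from miR-15b-5p to miR-16-5p, counted from the 5′ end. miR-16-5p and miR-195-5p were closer, with 19 of 21 positions identical and the substitutions G10A and U11G from the former to the latter. The guides were 21 or 22 bases long, so their levels in CPM (counts relative to library size) can be set side by side without a length correction, although the efficiency of adaptor ligation to each strand is not known.

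The passenger strands are shown because the comparisons of arms rest on them, again with bases 2 to 8 in capitals.
miR-16-2-3p: cCAAUAUUacugugcugcuuua
miR-16-1-3p: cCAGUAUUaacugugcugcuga
miR-15b-3p: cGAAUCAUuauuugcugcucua
miR-15a-3p: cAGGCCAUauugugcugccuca

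The hairpins form 3 pairs of neighbors. MIR15B (chr3:160404588-160404685) and MIR16-2 (chr3:160404745-160404825) lie 59 bases apart on the plus strand in an intron of SMC4. MIR15A (chr13:50049119-50049201) overlaps an exon of the lncRNA DLEU2 and MIR16-1 (chr13:50048973-50049061) lies in an intron of it, 57 bases away on the minus strand. MIR195 (chr17:7017615-7017701) and MIR497 (chr17:7017911-7018022) lie 209 bases apart in exons of the lncRNA MIR497HG. The mature miR-16-5p is identical from MIR16-1 and MIR16-2, so its count cannot be assigned to either locus, whereas the 3p strands differ and report the loci apart. Both hairpins of the SMC4 locus are printed with their mature arms in capitals, since the 4 strands found in them, miR-16-5p included, hold most of the family's counts.
MIR16-2: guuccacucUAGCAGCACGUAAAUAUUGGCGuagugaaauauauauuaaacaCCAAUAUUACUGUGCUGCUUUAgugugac
MIR15B: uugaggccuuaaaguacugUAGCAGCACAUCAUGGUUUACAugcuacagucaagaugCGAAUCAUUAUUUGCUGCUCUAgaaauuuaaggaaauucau

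Total RNA libraries held from 9155690 to 10753443 counts and m7G-RIP libraries from 2649238 to 3106556. Levels are given as CPM scaled by TMM, a method that sets libraries level on the bulk of their miRNAs, and a log2 ratio is m7G-RIP over total RNA. The amount of RNA recovered is not known, so each ratio sets a strand against the remaining miRNAs in those libraries. The share of all counts taken by miR-21-5p differed between the groups, at 44.5% to 49.0% in total RNA and 4.83% to 5.01% in m7G-RIP, and scaling by library size alone raised the median over all miRNAs tested by 0.55 on the log2 scale. With that scaling 216 miRNAs were enriched and 141 depleted, against 146 and 181 with TMM. The growth text attached to the m7G-RIP samples describes the medium of Caco-2, a colorectal line. Of 3 miRNAs taken as Caco-2 markers, miR-371a-5p and miR-373-3p had 0 counts in all 6 libraries and miR-372-3p had 0, 3 and 1 counts in total RNA and 0 in each m7G-RIP library, where 0 of 8519196 pooled counts allows up to 0.352 CPM before scaling. A marker that the antibody does not recover would also read 0 in m7G-RIP. No Caco-2 library was analysed, so these counts do not settle the cell line. METTL1 is not a miRNA, and its own level was not analysed here.

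Of the 7 strands tested, 1 was enriched in m7G-RIP (miR-16-5p) and 1 was depleted (miR-15b-3p) at an adjusted p under 0.05 in edgeR's quasi-likelihood test. Over all 620 miRNAs tested, 23.5% were enriched and 29.2% depleted, or 52.7% in either direction, so calls in the family were no more frequent than in the tables as a whole. The groups did not overlap for 3 of the 7 strands, against 66.0% of all tested miRNAs. Of these strands 1 was higher in m7G-RIP, where the share over all miRNAs was 29.5%, and 2 were lower, where it was 36.5%. The median log2 ratio was -0.71 for the 7 strands and -0.074 for all tested miRNAs. A lower ratio here means that less of a strand was recovered relative to the other miRNAs, and it does not measure a level in the cells.

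miR-16-5p, the most abundant guide of the family, was the enriched strand. In total RNA hsa-miR-16-5p had 482, 498 and 381 CPM in replicates 1, 2 and 3, and in m7G-RIP 622, 1140 and 775 CPM. The groups did not overlap, and m7G-RIP replicate 2 was the highest. The mean was 453 ± 63.4 CPM in total RNA and rose to 846 ± 266 CPM in m7G-RIP (SD, n = 3). The log2 ratio was 0.90 with an SE of 0.22 and an adjusted p of 0.00745 in edgeR. Without m7G-RIP replicate 2 the log2 ratio was 0.46 (edgeR adjusted p 0.0483), and with library size alone it was 1.44. It ranked 89 of 620 by mean CPM in total RNA and 55 in m7G-RIP. The study follows let-7e-5p as a carrier of m7G and miR-148a-3p as a miRNA without it. The same fit placed let-7e-5p at 2.24 and miR-148a-3p at -3.55 on the log2 scale, with miR-16-5p between them.

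miR-16-2-3p, the passenger strand of the SMC4 copy of miR-16, was nearly as abundant as the guide in total RNA. The guide is identical from both copies, and how reads with several loci were counted is not stated. hsa-miR-16-2-3p had 397, 352 and 356 CPM in total RNA and 335, 361 and 306 CPM in m7G-RIP, and the groups overlapped. The log2 ratio was -0.14 (95% interval -0.44 to 0.16, edgeR adjusted p 0.396). Its direction followed the scaling: with library size alone the log2 ratio was 0.41 and past the threshold (edgeR adjusted p 0.0183). It was past the threshold on the other side without m7G-RIP replicate 1 (-0.35, edgeR adjusted p 0.0438) and without m7G-RIP replicate 2 (-0.37, edgeR adjusted p 0.0489), so no direction is given for this strand.

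miR-16-1-3p, the passenger of the DLEU2 copy, was scarce. hsa-miR-16-1-3p had 6, 51 and 15 counts in total RNA, where replicate 2 stood apart, and 7, 0 and 0 counts in m7G-RIP. The fitted log2 ratio was -2.05 with a wide 95% interval, from -5.32 to 1.22 (edgeR adjusted p 0.261). Leaving out m7G-RIP replicate 1, which removes all counts of that group, gave an edgeR adjusted p of 0.0372, so the absence of a call rests on the 7 counts of that library. Summed over 3 libraries, total RNA held 9189 counts of miR-16-2-3p and 72 of miR-16-1-3p.

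**Figure D1:**
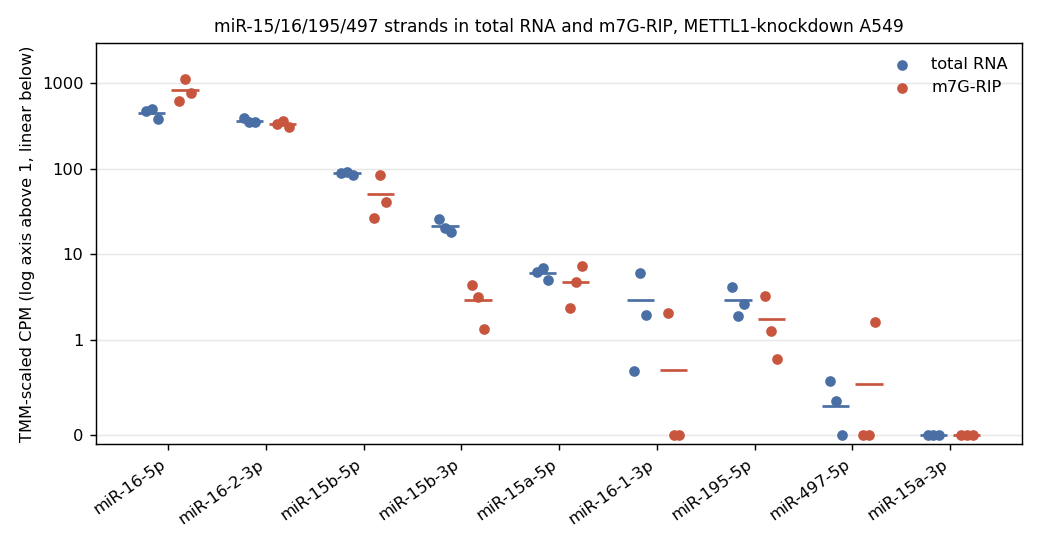
Level of each of the 9 strands in TMM-scaled CPM (log axis above 1, linear below), with 3 points per group for the libraries and a bar for their mean. The m7G-RIP points of miR-16-5p lie above its total RNA points, those of miR-15b-3p lie below, and miR-15a-3p is at 0 in all 6 libraries.

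miR-15b-3p, the passenger strand of MIR15B, was the depleted strand. hsa-miR-15b-3p had 26, 20.3 and 18.1 CPM in total RNA and 4.42, 3.14 and 1.34 CPM in m7G-RIP. All 3 m7G-RIP libraries lay well below all 3 total RNA libraries. The mean was 21.5 ± 4.03 CPM in total RNA and fell to 2.97 ± 1.55 CPM in m7G-RIP (SD, n = 3). The log2 ratio was -2.86 with an SE of 0.53 and an adjusted p of 0.00168 in edgeR. The m7G-RIP values rest on 15, 10 and 5 counts.

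hsa-miR-15b-5p, the guide from the same hairpin, had 89.0, 93.1 and 85.9 CPM in total RNA and 26.8, 85.4 and 41.0 CPM in m7G-RIP. The m7G-RIP libraries all lay below total RNA, but replicate 2 reached within 1 CPM of the lowest total RNA library. The log2 ratio was -0.81 (95% interval -1.66 to 0.040) and did not pass the threshold (edgeR adjusted p 0.0966). Without m7G-RIP replicate 2 it was -1.56 and passed (edgeR adjusted p 0.00212). With the replicate number as a block it was -0.97 and passed as well (edgeR adjusted p 0.0391).

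The remaining guides were at low counts and none passed the threshold. miR-15a-5p, the guide of MIR15A, had 55, 58 and 38 counts in total RNA and 8, 15 and 27 in m7G-RIP, or 6.21, 6.89 and 5.00 CPM against 2.36, 4.71 and 7.23 CPM. The m7G-RIP libraries spanned the total RNA libraries on both sides. Its log2 ratio was -0.34 (95% interval -1.89 to 1.22, edgeR adjusted p 0.699), with library size alone it turned to 0.20, and without m7G-RIP replicate 3 it was -1.0. miR-195-5p had 37, 16 and 20 counts in total RNA and 11, 4 and 3 in m7G-RIP, with overlapping levels and a log2 ratio of -0.71 (95% interval -2.67 to 1.25, edgeR adjusted p 0.513) that was -1.70 without m7G-RIP replicate 1. These intervals hold changes of more than 2-fold in either direction, so a difference of that size is not excluded.

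A further pair of strands was too scarce to test. miR-497-5p, the guide of MIR497, had 5, 3 and 0 counts in total RNA and 0, 0 and 6 in m7G-RIP. miR-15a-3p had 0 counts in all 6 libraries, where 0 of 30169733 pooled counts in total RNA allows up to 0.0994 CPM before scaling and 0 of 8519196 in m7G-RIP allows up to 0.352. Such limits cover counting error only.

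**Figure D2:**
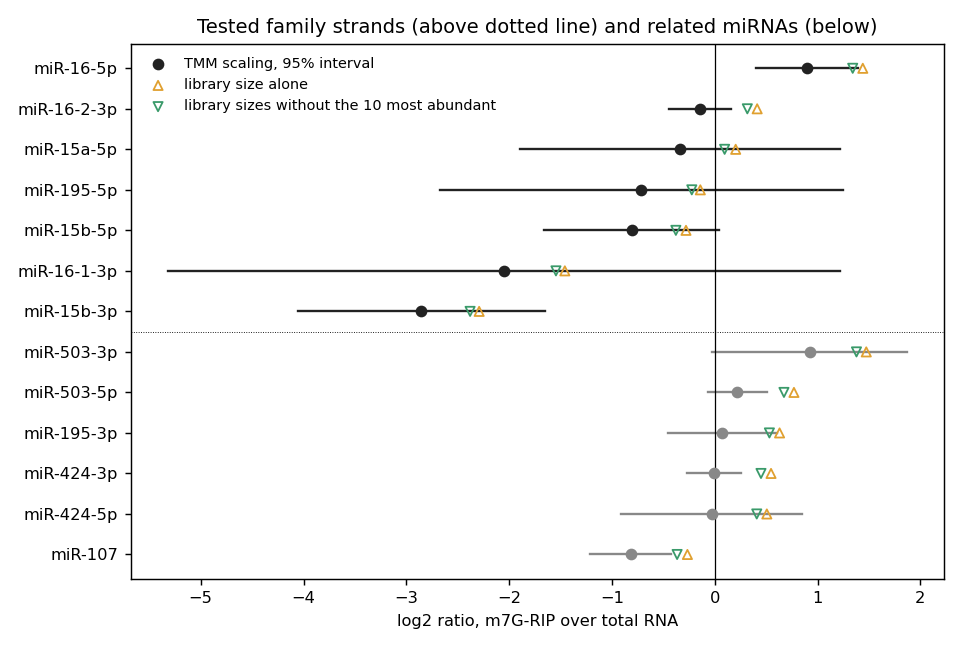
Log2 ratio of m7G-RIP over total RNA for the 7 tested strands and, below the dotted line, 6 related miRNAs. Points and lines are the TMM fit with its 95% interval, and open triangles are the same ratio with library size alone or with library sizes that leave out the 10 most abundant miRNAs, both of which move every strand to the right.

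The order of the levels in total RNA was miR-16-5p at 453 ± 63.4, miR-16-2-3p at 368 ± 25, miR-15b-5p at 89.3 ± 3.61, miR-15b-3p at 21.5 ± 4.03 and miR-15a-5p at 6.03 ± 0.961 CPM (SD, n = 3). The libraries of miR-16-5p and miR-16-2-3p overlapped, from 381 to 498 and from 352 to 397 CPM. Within each total RNA library miR-16-5p had the higher count, with log2 ratios to miR-16-2-3p of 0.28, 0.50 and 0.098, a difference that was not tested. Reads of miR-16-5p fit both of its hairpins and how they were counted is not stated, so the order of these strands may depend on it. Each of the next steps down to miR-15a-5p had no overlap. Below it came miR-16-1-3p at 2.90 ± 2.81, miR-195-5p at 2.90 ± 1.16 and miR-497-5p at 0.307 ± 0.285 CPM, and the first of these overlapped both miR-15a-5p and miR-195-5p. In m7G-RIP the order of the leading 3 strands was the same, but miR-16-5p stood clear of miR-16-2-3p, with its lowest library at 622 CPM and the highest of miR-16-2-3p at 361 CPM.

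Ratios of strands within a library do not depend on scaling, and they were used to ask whether the arms of a hairpin were recovered alike. The log2 ratio of miR-16-5p to the sum of both miR-16 3p strands was 0.28, 0.47 and 0.090 in total RNA and 0.88, 1.66 and 1.34 in m7G-RIP. The groups did not overlap, and the mean was higher in m7G-RIP by 1.01 on the log2 scale (SE 0.25), or 2.02-fold. The exact two-sided permutation p was 0.1, the smallest that 3 against 3 libraries can give, so the threshold could not be reached. Against miR-16-2-3p alone the difference was 1.01, and against miR-16-1-3p alone, whose counts are few, it was 3.40 with overlapping groups.

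The arms of MIR15B differed in the same direction. The log2 ratio of miR-15b-5p to miR-15b-3p was 1.78, 2.19 and 2.24 in total RNA and 2.56, 4.70 and 4.80 in m7G-RIP, a difference of 1.95 (SE 0.74), or 3.87-fold, without overlap (exact permutation p 0.1, adjusted over 3 arm ratios 0.1). m7G-RIP replicate 1 lay nearer to total RNA than the others. For miR-16 and miR-15b the guide thus made up more of the counts of its hairpins in every m7G-RIP library than in any total RNA library. For MIR15A no arm ratio is given, because its 3p strand was at 0 in every library, and the arms of MIR497 were likewise too scarce.

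The other hairpins of the seed family with both arms counted did not share this direction, in comparisons added after the results above were seen. In MIR195 the 3p strand was the more abundant arm, and the log2 ratio of miR-195-5p to miR-195-3p was -3.57, -4.46 and -4.58 in total RNA and -4.02, -5.15 and -6.04 in m7G-RIP. The groups overlapped, with a difference of -0.86 (SE 0.67, exact permutation p 0.3). In MIR503 the ratio of miR-503-5p to miR-503-3p was 5.97, 6.46 and 6.39 in total RNA and 5.54, 5.52 and 5.59 in m7G-RIP, lower in every m7G-RIP library by a difference of -0.72 (SE 0.15, exact permutation p 0.1, adjusted over the 3 added ratios 0.3). In MIR424 the 3p strand was again the more abundant arm, with log2 ratios of miR-424-5p to miR-424-3p of -5.48, -5.77 and -5.97 in total RNA. The difference there was -0.085 (SE 0.36), with overlap.

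The 10 pairs of the 5 guides were compared in the same way, to ask whether strands with a common seed were recovered alike. The log2 ratio of miR-15b-5p to miR-16-5p was -2.44, -2.42 and -2.15 in total RNA and -4.53, -3.74 and -4.24 in m7G-RIP. It was lower in every m7G-RIP library, by a difference of -1.83 (SE 0.25). miR-15a-5p against miR-16-5p also did not overlap, with -6.27, -6.16 and -6.23 in total RNA and -7.96, -7.87 and -6.72 in m7G-RIP, a difference of -1.30 (SE 0.40). Each had an exact permutation p of 0.1, the smallest possible, and an adjusted p of 0.5 over 10 pairs. The other 8 pairs overlapped, those with miR-497-5p resting partly on 0 counts, where the pseudocount and depth set the ratio. Among them, miR-16-5p against miR-195-5p, which differ by only 2 bases, had a difference of 1.64 with an SE of 0.80 (exact permutation p 0.2), which is too wide to say that they were recovered alike or apart.

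**Figure D3:**
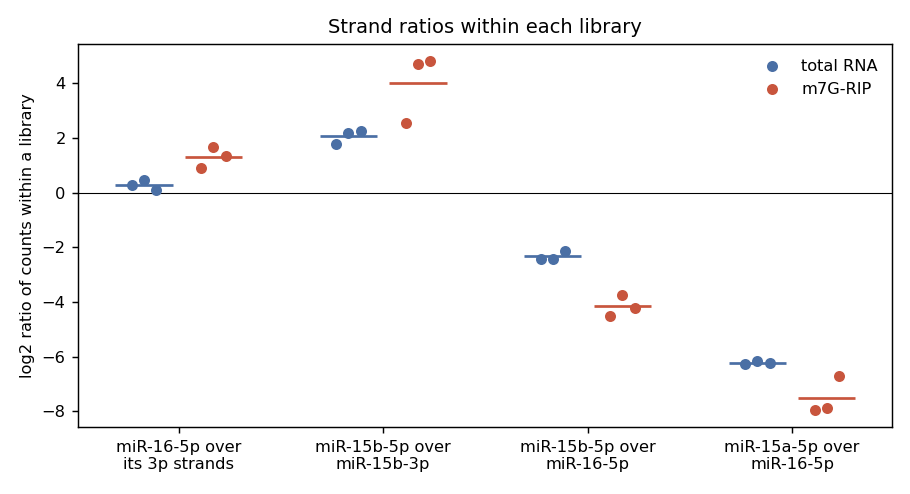
Log2 ratio of the counts of 2 strands within each library, with 3 points per group and a bar for the mean. The m7G-RIP points do not overlap those of total RNA in any of the 4 ratios, where guides are higher over their 3p strands and miR-15b-5p and miR-15a-5p are lower over miR-16-5p.

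The family as a whole took 0.0779% ± 0.00645 of all counts in total RNA and 0.149% ± 0.0303 in m7G-RIP (SD, n = 3; exact permutation p 0.1). In TMM-scaled units its sum was 945 ± 83.1 and 1241 ± 314 CPM, and the libraries overlapped, with 850 to 1006 CPM against 996 to 1596 CPM. The share of all counts also depends on miR-21-5p, which held 44.5% to 49.0% in total RNA and 4.83% to 5.01% in m7G-RIP. Its part in the difference was not tested. Within the family, miR-16-5p took 47.9%, 50.9% and 44.8% of the counts in total RNA and 62.5%, 71.4% and 68.4% in m7G-RIP, a difference of 19.6 percentage points (SE 3.16). miR-16-2-3p took 39.1% ± 2.94 and 27.8% ± 5.54, miR-15b-5p 9.49% ± 0.624 and 3.89% ± 1.35, and miR-15b-3p 2.26% ± 0.276 and 0.253% ± 0.170 (SD, n = 3). For these 4 strands the groups did not overlap (exact permutation p 0.1 each, adjusted over 9 strands 0.225). Shares add up to a fixed total, so these results are not independent, and a larger share of miR-16-5p lowers the others. The shares also rest on how reads of miR-16-5p with several loci were counted, which is not stated. Among the 5 guides alone, miR-16-5p took 82.0% ± 1.5 in total RNA and 93.8% ± 1.23 in m7G-RIP (SD, n = 3).

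**Figure D4:**
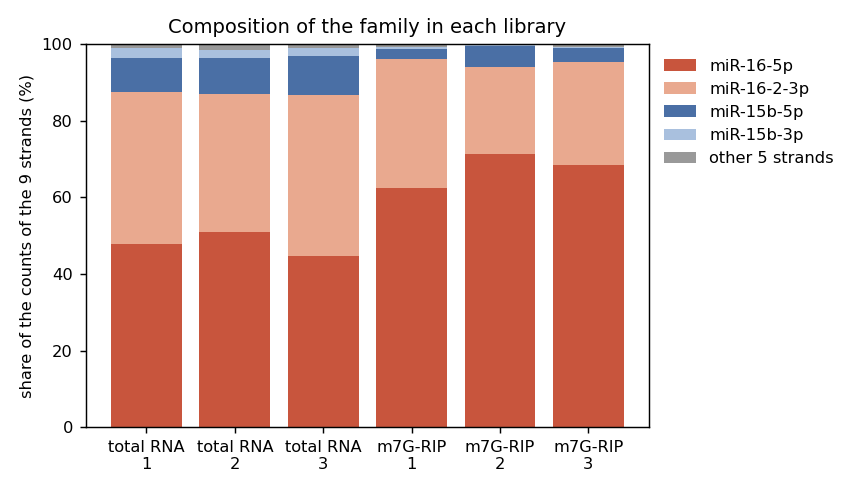
Share of each strand in the summed counts of the 9 strands, one bar per library. miR-16-5p makes up 44.8% to 50.9% in total RNA and 62.5% to 71.4% in m7G-RIP, while the shares of miR-16-2-3p, miR-15b-5p and miR-15b-3p are smaller there.

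Related miRNAs were taken from a list of 10, of which 6 were tested. None was enriched in edgeR's test (0 also at an unadjusted p under 0.05 and 0 in DESeq2 at an adjusted p under 0.05) and 1 was depleted, against 23.5% and 29.2% of all tested miRNAs. The depleted one was miR-107, whose seed is shifted by 1 base from that of miR-15/16. Its levels were 165, 171 and 149 CPM in total RNA and 81.0, 90.4 and 104 CPM in m7G-RIP, with no overlap. The log2 ratio was -0.82 with an SE of 0.17, and the adjusted p in edgeR was 0.00344. With library size alone it was -0.27 and did not pass. The sequences of miR-107 and of the X-linked relatives miR-424-5p and miR-503-5p show the shift and a changed last seed base.
miR-107: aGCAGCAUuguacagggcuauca
miR-424-5p: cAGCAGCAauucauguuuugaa
miR-503-5p: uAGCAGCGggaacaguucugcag

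miR-424-5p, which carries the same seed as miR-16-5p, had 19.0, 15.5 and 16.3 CPM in total RNA and 10.9, 23.5 and 15.3 CPM in m7G-RIP, with a log2 ratio of -0.031 (95% interval -0.91 to 0.85). miR-503-5p had 619, 633 and 622 CPM in total RNA and 665, 844 and 676 CPM in m7G-RIP, all above total RNA, with a log2 ratio of 0.22 (edgeR adjusted p 0.176). It passed the threshold as enriched with library size alone, at 0.77. The 3p strands miR-424-3p and miR-195-3p had log2 ratios of -0.0081 and 0.075 and overlapped. miR-503-3p had 0.93 (95% interval -0.025 to 1.88), without overlap, and passed as enriched where only miRNAs with 10 counts or more in each library were tested (0.86, edgeR adjusted p 0.0463). With library size alone all 3 of these 3p strands passed the threshold as enriched, at 0.55 for miR-424-3p, 0.63 for miR-195-3p and 1.47 for miR-503-3p. Of the 4 related miRNAs not tested, miR-646 and miR-103a-3p were at 0 in all libraries, and both hairpins of miR-103a-3p overlap a MIR103B gene on the opposite strand. How the counting treated such overlaps is not stated, and its part in that 0 was not tested.

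The number of G in a mature strand was compared with its recovery because the antibody recognizes a methylated guanosine. RefSeq sequences were found for 557 of the 620 tested miRNAs (89.8%). Across these miRNAs, which share the same 6 libraries and are not independent replicates, the log2 ratio correlated with the number of G (Pearson r = 0.396, Spearman rho = 0.42). The rise was not steady. Median log2 ratios were 0.014 at 1 G and 0.24 at 2 G. They ran from -1.10 to -0.36 at 3 to 7 G and were positive from 8 G upward. For C, A and U, Pearson r was -0.1, -0.221 and -0.207. The tested strands of the family have 3 to 6 G. miR-16-5p and miR-15a-5p each have 6 G, where the median log2 ratio of 64 tested miRNAs was -0.36 and the quartiles -1.84 and 0.41. The log2 ratio of miR-16-5p, 0.90, was thus above the upper quartile of its class and that of miR-15a-5p, -0.34, near the median.

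The passengers miR-15b-3p and miR-16-2-3p both have 3 G. The 43 tested miRNAs with 3 G had a median of -1.09 and quartiles of -2.71 and 0.17, with miR-15b-3p below the lower quartile and miR-16-2-3p above the median. miR-15b-5p has 4 G, where the median of 64 miRNAs was -1.10, and its -0.81 was near it. Of the 2 strands called in the family, the enriched one has 6 G and the depleted one 3 G. The strands with the same numbers, miR-15a-5p with 6 G and miR-16-2-3p with 3 G, had no call. Of the 64 tested miRNAs with 6 G, 7 were enriched and 22 depleted, so these calls do not follow the number of G. Over hairpins, a motif of 4 runs of GG or longer with 1 to 7 bases between them, searched on the transcribed strand, was present in 457 of 1562 RefSeq hairpins (29.3%). Of the 6 family hairpins it was found in MIR497 alone, and MIR16-2 and MIR15B had 18.5% and 19.4% G against a median of 27.0% over all hairpins.

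**Figure D5:**
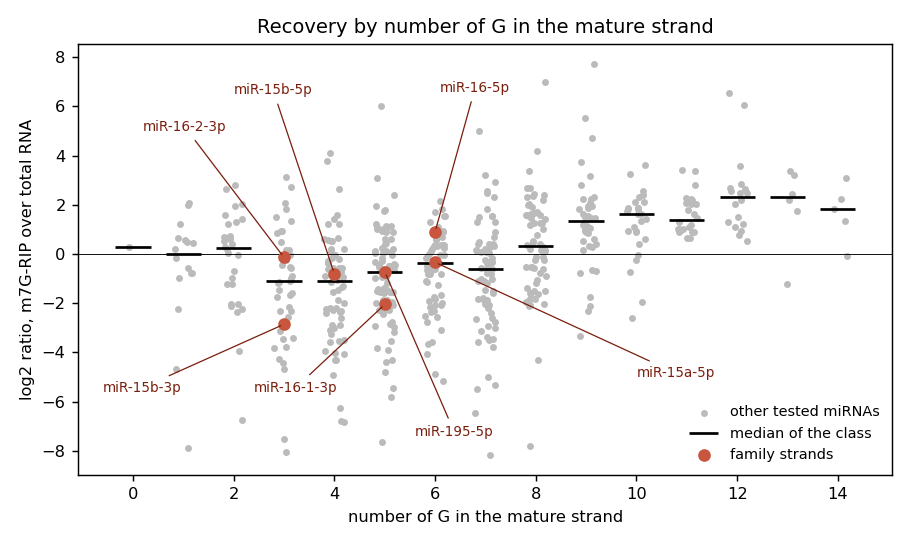
Log2 ratio of m7G-RIP over total RNA against the number of G in the mature strand for 557 tested miRNAs (gray, spread sideways for view), with the median of each class as a black bar and the 7 tested family strands in red. Medians are above 1 from 9 G upward, and the family strands lie at 3 to 6 G, where miR-16-5p is above and miR-15b-3p below most of its class.

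The miRNAs whose centered log2 CPM profile over the 6 libraries was nearest to that of miR-16-5p were miR-942-5p, miR-30c-2-3p and miR-3934-5p, at Euclidean distances of 0.350, 0.358 and 0.422. Their own log2 ratios were 0.95, 0.88 and 1.04, and a near profile already implies a similar ratio. Nearest to miR-16-2-3p were miR-25-3p, let-7i-5p and let-7g-5p, at 0.196, 0.237 and 0.283. None of these nearest profiles belongs to the family, but only 7 of the 620 tested miRNAs do, so nothing is read from this.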

How the data were processed

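Each group has a table that the authors deposited, holding raw counts for mature miRNAs. Per the study's methods, adaptors were trimmed with Trimmomatic, reads were mapped to GRCh38 and counts were made with featureCounts on miRBase mature miRNAs. The methods name STAR with up to 10 loci per read as aligner and the submitters' processing notes name Bowtie2. How reads with several loci, such as those of miR-16-5p, were counted is not stated. Groups and replicate numbers were taken from sample titles. Nothing in the labels says that replicates came from separate cultures, so p-values measure the spread between these libraries, which may be technical. Replicates differed by more than counting noise (chi-square per degree of freedom from 22.2 to 112).

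Counts of all miRNAs were fitted with edgeR 4.0.16 in R 4.3.3 (TMM, default expression filter, robust quasi-likelihood F test, no replicate block) and p-values were adjusted by Benjamini-Hochberg over 620 miRNAs at 0.05. Intervals of log2 ratios are 95%. Ratios within a library used a pseudocount of 0.5 and exact permutation tests. A count of 0 was taken to allow 3 counts. DESeq2 1.42.0 was an alternative. The code was tested on simulated counts. Host genes are from GENCODE 44. Named miRNAs are the 9 members, a list of 10 relatives, let-7e-5p and miR-148a-3p, and the 3 nearest profiles of the 2 members with most counts. Members and lists were chosen with earlier results of these data known.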

Additional observations from a re-analysis of the deposited data

How the results depend on the processing

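miR-16-5p stayed enriched in all 13 alternatives (log2 ratio 0.46 to 1.44, edgeR or DESeq2 adjusted p 4.34e-05 to 0.0483), and miR-15b-3p stayed depleted in each of the 12 that tested it (-3.49 to -2.29). With library size alone 2 strands were enriched, miR-16-2-3p being added at 0.41. miR-16-2-3p was also above 0, at 0.32, when library sizes left out the 10 miRNAs with most counts, and miR-15a-5p reached 0.20 and 0.096 in these 2 settings. Both raise the median of all miRNAs, by 0.55 and 0.45. With no filter 2 strands were depleted, miR-15b-5p being added at -1.11. With 10 counts or more required in each library miR-15b-5p was the depleted strand (-0.88), and miR-15b-3p was not among the miRNAs tested. Across the fits without a library, 1 strand was enriched and from 1 to 3 were depleted, and miR-15b-5p ran from -1.56 to -0.73. DESeq2's Wald test gave miR-15b-5p an adjusted p of 0.0513. The causes of these changes were not tested.

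Libraries with the same replicate number were treated as unpaired, since the study's description of its enrichment test names no pairing. Their deviations from the means of their groups correlated at -0.0433, -0.101 and 0.0641 over 620 miRNAs. Such values cannot exclude a pairing. With the replicate number as a block 2 strands were depleted, miR-15b-5p being added, and 122 of all miRNAs were enriched and 175 depleted. With the libraries paired, the differences in the miR-15b and miR-16 arm ratios are by construction the same 1.95 and 1.01 (exact sign-flip permutation p 0.25, the smallest that 3 pairs can give).

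Leaving out single libraries, the difference in the arm ratio was from 0.83 to 1.22 for miR-16 and from 1.56 to 2.68 for miR-15b. Of the 7 guide pairs with miR-195-5p or miR-497-5p, 5 changed direction: miR-15a-5p over miR-195-5p ran from -0.43 to 1.28, miR-15b-5p over miR-195-5p from -0.76 to 0.70, miR-15a-5p over miR-497-5p from -1.47 to 0.0085, miR-16-5p over miR-497-5p from -0.35 to 1.66 and miR-195-5p over miR-497-5p from -2.32 to 0.39. The share of miR-497-5p ran from -0.031 to 0.040 percentage points. Depth limits miR-15a-5p, miR-16-1-3p, miR-195-5p and miR-497-5p, which had at most 58 counts in any library. The 3 added arm ratios, the guide pair values without a library and the paired values for guides and shares were chosen after seeing the data.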

Other observations

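The spread of the m7G-RIP libraries differed among strands of the seed family. The highest over the lowest m7G-RIP library was 3.19 for miR-15b-5p, 2.16 for miR-424-5p, 1.83 for miR-16-5p, 1.27 for miR-503-5p and 1.18 for miR-16-2-3p, against a median of 1.51 over 359 miRNAs that had 10 counts or more in each of the 6 libraries. In total RNA the same ratio was 1.08 for miR-15b-5p, 1.23 for miR-424-5p, 1.31 for miR-16-5p, 1.02 for miR-503-5p and 1.13 for miR-16-2-3p, against a median of 1.23. Replicate 2 was the highest m7G-RIP library for miR-16-5p, miR-16-2-3p, miR-15b-5p, miR-424-5p, miR-503-5p and miR-503-3p. The highest was replicate 3 for miR-15a-5p, miR-497-5p, miR-107 and miR-195-3p. It was replicate 1 for miR-195-5p, miR-15b-3p, miR-16-1-3p and miR-424-3p. For miR-195-3p and miR-424-3p replicate 2 was the lowest. These values were looked at after the results were known and were not tested.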
